A study of Mus musculus with 47 samples.

Results

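Hepcidin, the peptide hormone that limits iron entry into blood, was followed here together with the genes that sense iron for it, the iron exporter it acts on and common targets of the same signal. The set held 10 genes of the 23416 counted: the hepcidin genes Hamp and Hamp2, the sensing genes Hfe, Hfe2, Tfr2 and Tfrc, the exporter Slc40a1, the protease Tmprss6, and the BMP target genes Id1 and Smad7. Hamp and Hamp2 were chosen on their difference between KO-F1 and Ctrl-F1 liver, so their liver values are given as a description without a test, and the other 8 genes were listed for their place in the pathway. All 10 symbols were found in the count tables.

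The libraries came from liver and from cauda epididymal sperm collected by swim-up, in mouse males aged 8 to 12 weeks, and each group held 2 biological replicates. To make KO-F1 males, the study injected testicular sperm of Scml2-KO C57BL/6 males into BDF1 oocytes (ICSI), and Ctrl-F1 males were made by the same procedure with sperm of wild-type littermates. Scml2 is X-linked, so sons of Scml2-KO males carry a wild-type maternal copy, and because BDF1 mothers carry more than one strain's alleles the F1 males can differ in maternal alleles as well as in sire. KO-F2 males came from single F1 males mated with C57BL/6 females. They were studied in spermatozoa without Ctrl-F2 males, so they were compared with F1 groups. Against Ctrl-F1, generation cannot be told apart from line of descent. Against both F1 groups, generation cannot be told apart from conception by mating instead of ICSI or from the strain of the mother.

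Hepatocytes secrete hepcidin, which binds ferroportin, the product of Slc40a1, and causes its degradation. Iron-dependent BMP signalling through SMAD proteins, with hemojuvelin (Hfe2, named Hjv in RefSeq) as a coreceptor and Hfe and Tfr2 as sensors, drives Hamp transcription, whereas Tmprss6 damps it by acting on hemojuvelin. Inflammation reaches the same promoter through IL-6 and STAT3. Mice carry a second hepcidin gene, Hamp2, whose role in iron balance is less clear than that of Hamp, and hepatic levels of both are known to differ between inbred strains.

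The libraries held 11339729 to 14278900 counts in liver, 1503733 to 2778171 in F1 spermatozoa and 8384266 to 11462105 in KO-F2 spermatozoa. All 8 hepatocyte markers were detected in each liver library and took 13.3% and 13.9% of counts in the Ctrl-F1 livers and 14.0% and 15.1% in the KO-F1 livers, without overlap. All 20 late spermatogenesis markers were detected in each sperm library. Their share of counts was 12.5% to 14.1% in Ctrl-F1, only 4.73% to 6.19% in KO-F1 and 16.3% to 16.4% in KO-F2 spermatozoa, so the KO-F1 sperm libraries stood apart from the rest. Scml2 itself was at 0 counts in all 4 liver libraries and between 0 and 18 in sperm, and it checks no label here because the sons are not mutant.

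The hepcidin genes lie near each other on the minus strand of chromosome 7 in GRCm38, Hamp2 at chr7:30922372-30924181 and Hamp at chr7:30942368-30944029, with 18186 bases between them that hold the pseudogene Usf2-ps1. Each has 3 exons, and the spliced transcripts of 407 bases (Hamp) and 437 bases (Hamp2) were 94.6% identical over the aligned 407 bases. The 250 bases before each start are shown because BMP and STAT3 signals are known to reach Hamp through letters in this region. The stretches are from RefSeq, GRCm38.p6, minus strand, at chr7:30944030-30944279 for Hamp and chr7:30924182-30924431 for Hamp2. Capitals mark GGCGCC, the core of the BMP responsive element, and TTCNNNGAA, the STAT core, both searched on both strands.
Hamp: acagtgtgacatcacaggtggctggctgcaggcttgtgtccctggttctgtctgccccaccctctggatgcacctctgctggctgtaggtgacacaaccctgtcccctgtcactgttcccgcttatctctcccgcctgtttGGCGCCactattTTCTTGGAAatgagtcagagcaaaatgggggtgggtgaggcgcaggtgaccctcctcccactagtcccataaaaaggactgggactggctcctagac
Hamp2: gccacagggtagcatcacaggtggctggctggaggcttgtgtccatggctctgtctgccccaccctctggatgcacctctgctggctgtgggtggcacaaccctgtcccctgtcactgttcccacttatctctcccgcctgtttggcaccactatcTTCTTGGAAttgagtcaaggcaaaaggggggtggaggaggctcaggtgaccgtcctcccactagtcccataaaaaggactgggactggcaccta

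The promoters were 91.9% identical over 247 aligned bases. Both held the STAT core, at -97 in Hamp and -94 in Hamp2, counted from the start of transcription. GGCGCC stood at -109 in Hamp and was not among the letters of the Hamp2 window, where the aligned bases carried the substitution G145A (the Hamp base first, counted from 1 at the first base shown). Of 32851 promoters, 9.59% held GGCGCC, 7.02% the STAT core and 6.02% the E-box CACGTG, which neither hepcidin window held. Of the other members in the promoter table, GGCGCC was found at -89 in 1 of 2 Tfrc promoters and none of the motifs in Hfe or in the 3 Tfr2 promoters.

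Hamp was higher and Hamp2 lower in both KO-F1 livers than in both Ctrl-F1 livers. Hamp had 7593 and 6356 counts in the Ctrl-F1 livers and 17417 and 14690 in the KO-F1 livers. Hamp2 had 16880 and 17164 counts in the Ctrl-F1 livers and 1172 and 559 in the KO-F1 livers. The groups did not overlap for either gene. As TMM-scaled CPM, the counts relative to library size, Hamp averaged 483 ± 79.9 (SD, n = 2) in the control livers. In the KO-F1 livers Hamp averaged 1390 ± 43.1 (SD, n = 2). Hamp2 averaged 1176 ± 33.7 (SD, n = 2) in the control livers. In the KO-F1 livers Hamp2 averaged 73.7 ± 31.0 (SD, n = 2). The ribosomal RNA gene Rn45s also separated the groups, at 0.636% and 0.706% of counts in the control livers and 1.21% and 1.59% in the KO-F1 livers, and its part in the liver differences was not tested. The fitted log2 fold changes were 1.52 (SE 0.18) for Hamp and -3.996 (SE 0.30) for Hamp2.

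**Figure D1:**
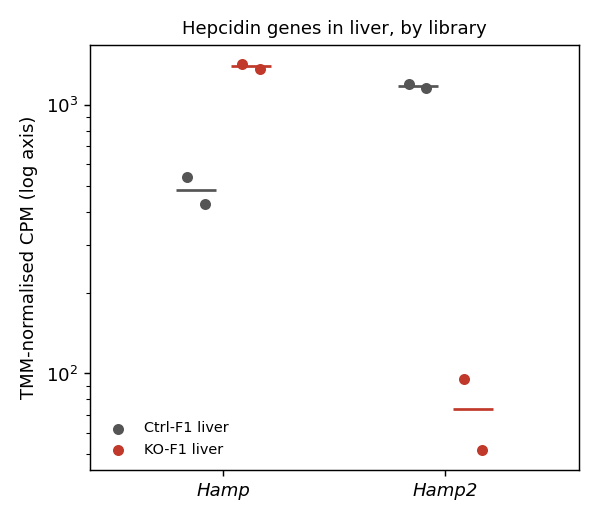
TMM-normalised CPM of Hamp and Hamp2 in liver on a log axis; each point is a library and each line the mean of 2. Hamp lies at 427 and 540 in Ctrl-F1 and at 1359 and 1420 in KO-F1, and Hamp2 at 1152 and 1200 in Ctrl-F1 and at 51.7 and 95.6 in KO-F1.

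The order of the pair was exchanged between the groups. Of the summed hepcidin counts, the share of Hamp was 31.0% (95% Wilson interval 30.4% to 31.6%) and 27.02% (26.5% to 27.6%) in the Ctrl-F1 livers. It took 93.7% (93.3% to 94.0%) and 96.3% (96.0% to 96.6%) in the KO-F1 livers. The summed level differed far less than either gene, at 1740 and 1579 CPM in Ctrl-F1 against 1516 and 1411 CPM in KO-F1. Its mean in KO-F1 was 88.2% of that in Ctrl-F1, and the gain in Hamp equalled 82.2% of the loss in Hamp2.

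The similarity of the pair bears on how reads are shared between them. Reads were 75 bases long. Of the 333 windows of that length in the Hamp transcript, 13 (3.90%) were identical to a window of Hamp2, and 168 (50.5%) came within 2 mismatches of one. For Hamp2 the same 168 windows were 46.3% of 363. Only uniquely aligned reads were counted, and the windows were taken from the C57BL/6J reference. How many reads of other alleles went to the neighbouring gene was not tested.

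None of the 8 other members passed the test in liver (edgeR's quasi-likelihood test, at least 2-fold and adjusted p under 0.01, Benjamini-Hochberg over all 11505 genes tested). All 10 members passed the filter on low counts. Among the 8 other members edgeR called 0, against 0% of all genes, and DESeq2 called 0, against 0.174% of all genes. At an unadjusted p under 0.05 in edgeR there were 2 of 8, Hfe2 and Tfrc, against 9.41% of all genes. The groups did not overlap for 3 of 8, Hfe2, Tfrc and Tmprss6, against 41.5% of all genes. These counts come from the contrast on which the hepcidin genes were chosen and support nothing further. The 8 other members were split evenly, 4 with a positive and 4 with a negative log2 fold change, with a median of -0.01, and the median over all genes was -0.01.

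**Figure D2:**
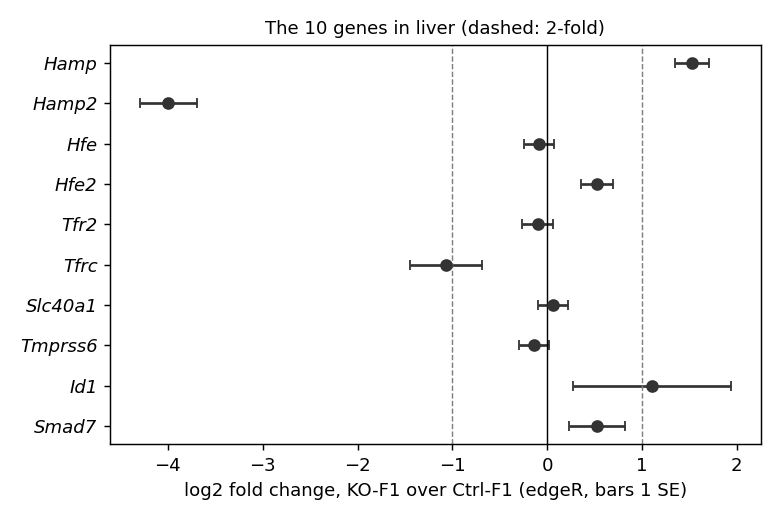
Log2 fold change of the 10 genes in liver, KO-F1 over Ctrl-F1, from edgeR; bars are 1 SE and dashed lines mark 2-fold. Hamp lies at 1.52 and Hamp2 at -3.996, and both were chosen on this contrast. The 8 other genes, listed for their place in the pathway, range from -1.06 to 1.11.

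Among the sensing genes, Hfe2 and Tfrc had groups that did not overlap. Hfe2 (chr3:96525163-96529216), the coreceptor, had 702 and 779 counts in the Ctrl-F1 livers and 796 and 891 in the KO-F1 livers, or 49.9 and 52.3 against 64.9 and 82.4 CPM. Both KO-F1 livers were above both Ctrl-F1 livers, at a log2 fold change of 0.53 (SE 0.17, edgeR adjusted p = 0.485). Tfrc (chr16:32608896-32632794), the transferrin receptor that brings iron into most cells, had 297 and 674 counts in Ctrl-F1 against 247 and 125 in KO-F1, or 21.1 and 45.3 against 20.1 and 11.6 CPM. Its groups were separated by less than the spread within each, at a log2 fold change of -1.06 (SE 0.38, edgeR adjusted p = 0.501). Without Ctrl-F1 liver replicate 1, Tfrc passed the threshold at -1.51 (edgeR adjusted p = 2.09e-05), and without Ctrl-F1 liver replicate 2 its value was -0.40, so this gene rested on a single control liver.

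Hfe, Tfr2, Slc40a1 and Tmprss6 lay close to a log2 fold change of 0. Hfe (chr13:23702034-23710854), an MHC class I-like protein that links transferrin to hepcidin, was at 52.0 and 54.9 CPM in Ctrl-F1 against 46.9 and 53.9 CPM in KO-F1, a log2 fold change of -0.09 (SE 0.15, edgeR adjusted p = 0.893). Tfr2 (chr5:137569822-137588081), the hepatocyte sensor of iron-loaded transferrin, was at 408 and 340 CPM in Ctrl-F1 against 332 and 365 CPM in KO-F1, a log2 fold change of -0.10 (SE 0.16, edgeR adjusted p = 0.884). The groups overlapped for both genes. Slc40a1 (chr1:45908070-45926532), which encodes ferroportin, was at 126 and 111 CPM in Ctrl-F1 against 131 and 116 CPM in KO-F1, a log2 fold change of 0.06 (SE 0.16, edgeR adjusted p = 0.927). Tmprss6 (chr15:78439667-78468648) was at 473 and 495 CPM in Ctrl-F1 against 409 and 472 CPM in KO-F1, a log2 fold change of -0.14 (SE 0.16, edgeR adjusted p = 0.819). Both KO-F1 values of Tmprss6 were below both Ctrl-F1 values, by less than the spread within KO-F1. Ferroportin protein, on which hepcidin acts, was not measured by these counts.

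Id1 and Smad7, whose transcripts follow BMP signalling in hepatocytes, had groups that overlapped, with the wider spread in KO-F1. Id1 (chr2:152736251-152737410) had 20 and 58 counts in Ctrl-F1 against 124 and 14 in KO-F1, so the highest and the lowest library were both KO-F1. Its log2 fold change was 1.11 (SE 0.83, edgeR adjusted p = 0.700) and was -1.02 without KO-F1 liver replicate 1. Smad7 (chr18:75367365-75395935), an inhibitory SMAD, had 102 and 152 counts in Ctrl-F1 against 189 and 104 in KO-F1, with overlapping groups and a log2 fold change of 0.52 (SE 0.30, edgeR adjusted p = 0.602).

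**Figure D3:**
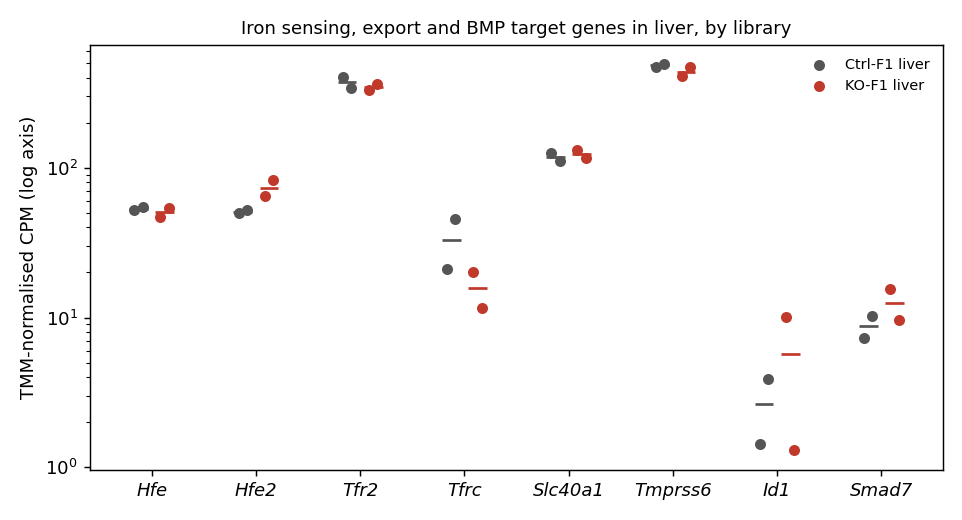
TMM-normalised CPM of the 8 other genes in liver on a log axis; each point is a library and each line the mean of 2. The groups lie close together except for Hfe2, Tfrc, Id1 and Smad7, and the 2 KO-F1 points of Id1 lie at 10.1 and 1.30.

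Per kilobase of exon, the hepcidin genes led the set in Ctrl-F1 liver, Hamp2 at 2692 CPM per kb and Hamp at 1187. Tmprss6 (152 CPM per kb), Tfr2 (99.7), Slc40a1 (35.0), Hfe2 (25.3), Hfe (15.0) and Tfrc (6.44) followed in that order with no overlap between neighbours, and Id1 and Smad7 at 2.29 and 1.97 overlapped. In KO-F1 liver Hamp led at 3415 CPM per kb. Hamp2, at 169, overlapped with Tmprss6 at 138, and Slc40a1 at 36.6 overlapped with Hfe2 at 36.5. Fewer cells of a type and less RNA per cell cannot be told apart in these bulk libraries.

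The other genes of the pathway were taken from 7 lists with 106 genes, of which 97 were tested in liver. edgeR called none of them (0% of all genes) and DESeq2 called Socs3 (0.174% of all genes). At an unadjusted p under 0.05 in edgeR there were 12 of 97, or 12.4% against 9.41% of all genes, 5 higher and 7 lower in KO-F1. Their median log2 fold change was -0.01, against -0.01 for all genes.

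The IL-6 and STAT3 list held the largest of these differences. Socs3, the feedback inhibitor that STAT3 induces, had 49 and 75 counts in Ctrl-F1 against 182 and 470 in KO-F1. Socs3 had a log2 fold change of 2.77 (SE 0.48, edgeR adjusted p = 0.282, DESeq2 adjusted p = 2.59e-07). Il6ra, which encodes the IL-6 receptor, had 353 and 293 counts in Ctrl-F1 against 115 and 112 in KO-F1, a log2 fold change of -1.18 (SE 0.20, edgeR adjusted p = 0.275). Il6st, its signalling partner gp130, had a log2 fold change of -0.66 and Saa3, an acute phase gene, one of 1.57, with edgeR adjusted p = 0.466 and 0.485. Of 21 genes tested 13 were positive and 8 negative, with a median of 0.28, and 5 had an unadjusted p under 0.05, 3 higher and 2 lower, or 23.8% against 9.41% of all genes. Stat3 itself had a log2 fold change of -0.21 and the acute phase gene Saa1 one of -0.12, both chosen after their values were seen.

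Of the BMP target genes other than Id1 and Smad7, 5 of 6 were positive, with a median of 0.36. Id3 had 391 and 569 counts in Ctrl-F1 against 956 and 586 in KO-F1, a log2 fold change of 1.00 (SE 0.23, edgeR adjusted p = 0.383). Id2 and Atoh8 had log2 fold changes of 0.56 and 0.39. Of the BMP ligands, receptors and SMADs, 7 of 17 were positive and 10 negative, with a median of -0.10. Bmpr2, a type II BMP receptor, had 27 and 64 counts in Ctrl-F1 against 11 and 9 in KO-F1, a log2 fold change of -1.84 (SE 0.58, edgeR adjusted p = 0.485). Acvr2a, another type II receptor, and Bmp6, the ligand that follows liver iron, had -0.46 and -0.83. All 3 had lower values in both KO-F1 livers than in both Ctrl-F1 livers. In the whole list 5 of 17 genes were lower in this way and 4 higher, where 41.5% of all genes did not overlap.

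Of the hepatocyte factors and proteases at hepcidin, 8 of 14 were positive, with a median of 0.09, and the leading genes were Foxa2 (0.69), the stress factor Ddit3 (-1.12) and Usf2 (0.31). Of the genes of iron uptake, transport and storage, 8 of 21 were positive, with a median of -0.10. Ncoa4, the receptor for ferritin breakdown, had 396 and 432 counts in Ctrl-F1 against 197 and 193 in KO-F1, a log2 fold change of -0.75 (SE 0.17, edgeR adjusted p = 0.358). The importer Slc11a2 had -0.39. Of 7 transcripts with iron responsive elements or their binding proteins 1 was positive, with a median of -0.18, and Cdc42bpa (-0.64), Alas2 (-0.30) and Aco1 (-0.23) led. Of the heme genes 7 of 12 were positive, with a median of 0.06, and Cpox (-0.39), Uros (0.43) and Fech (-0.36) led. The ferritin genes Fth1 and Ftl1, named after their values were seen, had log2 fold changes of 0.14 and 0.14.

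**Figure D4:**
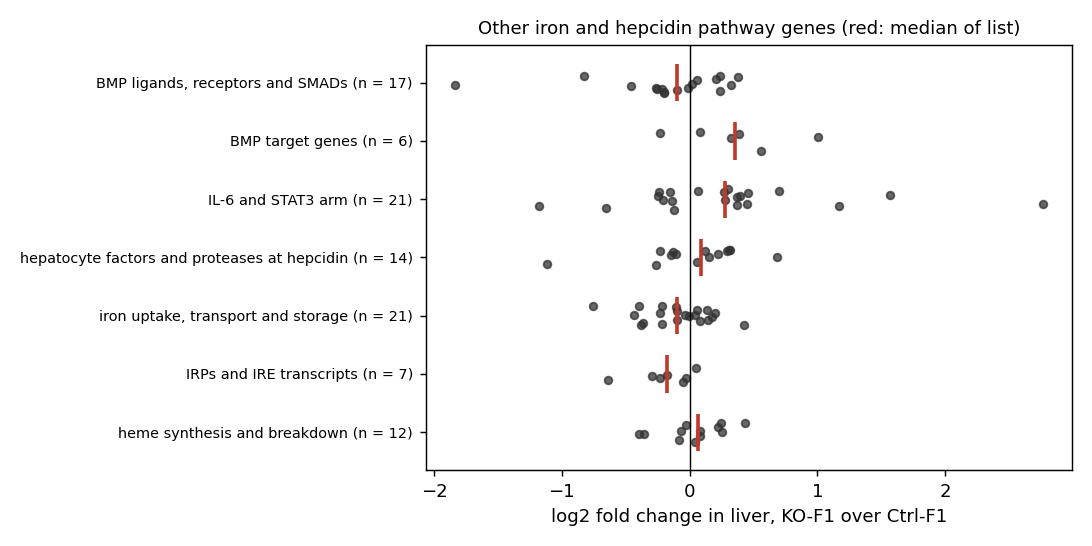
Log2 fold change in liver, KO-F1 over Ctrl-F1, of the tested genes of 7 pathway lists; each point is a gene and each red line the median of a list. The medians lie between -0.18 and 0.36, and Socs3 lies farthest right at 2.77 and Bmpr2 farthest left at -1.84.

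Summed markers of most other liver cells overlapped between the groups. Kupffer cell markers ranged from 130.4 to 194 CPM in Ctrl-F1 livers and from 132 to 245 CPM in KO-F1 livers, and sinusoidal endothelial markers from 85.0 to 141 and from 113 to 114 CPM. Stellate cell markers ranged from 206 to 278 and from 211 to 286 CPM, cholangiocyte markers from 19.9 to 29.3 and from 17.9 to 27.9 CPM, and erythroid markers from 309 to 379 and from 249.6 to 402 CPM. Leukocyte markers summed to 5.19 and 8.39 CPM in Ctrl-F1 against 9.70 and 17.1 CPM in KO-F1, with no overlap and the highest in the library with the most Socs3 and Saa3 counts. Their part in these differences was not tested.

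Of 17 other genes within 100 kb of the hepcidin pair 10 were in the count tables and 4 were tested in liver. Of these 4 edgeR and DESeq2 called none, against 0% and 0.174% of all genes. Usf2, beside Hamp, had a log2 fold change of 0.31 (SE 0.15, edgeR adjusted p = 0.555) and Lsr one of 0.24. Fam187b and Fxyd5, with 28 to 64 counts a library, had 0.57 and 0.18. Usf2, Lsr and Fam187b were higher in both KO-F1 livers than in both Ctrl-F1 livers, and Fxyd5 overlapped. Of all genes, 41.5% did not overlap. Ffar1, Ffar2 and Ffar3 had no counts in liver, and Cd22, Mag and Fxyd7 had at most 14.

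Genes like the hepcidins over the 4 liver libraries were sought by the distance between centred log2(CPM + 1) profiles. Nearest to Hamp were Dusp1 (distance 0.16), Prelid2 (0.20), Klf10 (0.34), Isg15 (0.48) and Cyp2g1 (0.52). Dusp1, an immediate early phosphatase, had 236 and 185 counts in Ctrl-F1 against 523 and 513 in KO-F1. Prelid2 had only 7 and 5 counts in Ctrl-F1 against 37 and 27 in KO-F1. Its fitted log2 fold change was 2.71 (SE 0.56), against 1.52 for Hamp, and the 1 added to CPM shrinks the change of such low genes. Nearest to Hamp2 were Lmbrd2 (2.32), Mia2 (2.62), Ern1 (2.67), Gpam (2.70) and Scarb2 (2.70). This distance grows with the size of a change: a flat profile would lie at 4.09 from Hamp2 and at 1.55 from Hamp. The distances of the 2 genes can therefore not be set against each other. A profile of 4 libraries in 2 groups mostly holds the group difference, so likeness here is a description.

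Neither hepcidin gene had a count in any of the 6 sperm libraries. A count of 0 allows up to 3 counts, or 1.08 to 2.00 CPM of the library total in F1 spermatozoa and 0.262 to 0.358 in KO-F2 spermatozoa, for counting error only. The shift seen in liver could therefore not be looked for in sperm. Tmprss6 had 5 counts in a single KO-F2 library and 0 in the others. Tfr2 reached at most 16 counts and Slc40a1 at most 21, the latter in Ctrl-F1 replicate 2 with 0 in the other F1 libraries.

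**Figure D5:**
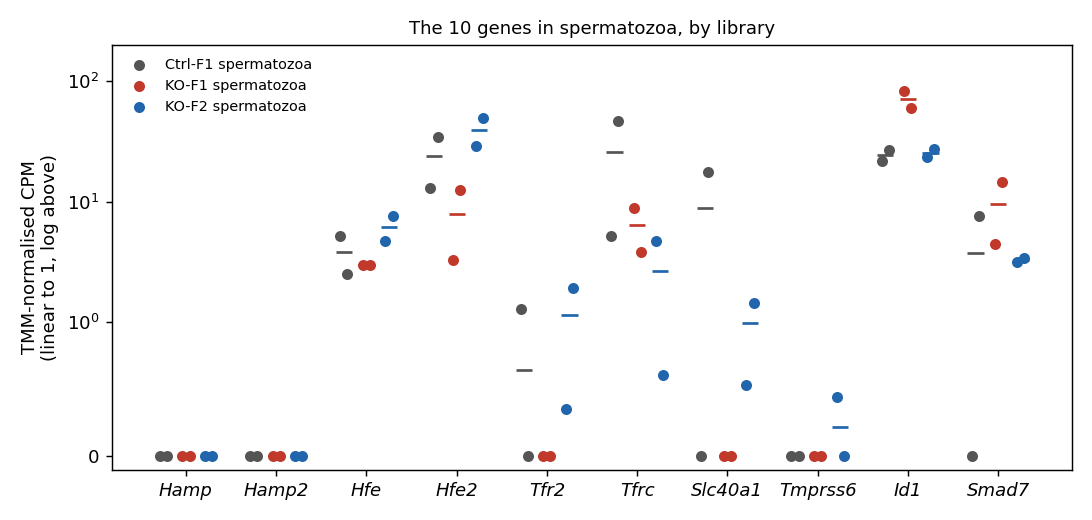
TMM-normalised CPM of the 10 genes in spermatozoa, on an axis that is linear to 1 and logarithmic above; each point is a library and each line the mean of 2. Hamp and Hamp2 lie at 0 throughout, and Id1 lies at 59.3 and 82.5 in KO-F1 against 21.6 to 27.5 in the other 4 libraries.

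Id1 had the highest mean per kilobase of the members in the sperm of each group, with overlap with Hfe2 in KO-F2. It had 50 and 32 counts in Ctrl-F1, then 277 and 139 in KO-F1 and finally 264 and 227 in KO-F2 spermatozoa. As CPM these were 21.6 and 26.9, 82.5 and 59.3, and 23.3 and 27.5, so both KO-F1 libraries were above all others and the Ctrl-F1 and KO-F2 libraries overlapped. In KO-F1 against Ctrl-F1 the log2 fold change was 1.53 (SE 0.50, edgeR adjusted p = 0.166). In KO-F2 against KO-F1 it was -1.30 (SE 0.34, edgeR adjusted p = 0.0381), and in KO-F2 against Ctrl-F1 it was 0.09 (SE 0.42, edgeR adjusted p = 0.958). None of these passed the threshold of 0.01. When libraries were scaled to the late spermatogenesis markers, Id1 was at 3.37 in KO-F1 against Ctrl-F1 (edgeR adjusted p = 0.0115). In KO-F2 against KO-F1 it was then at -3.70, past the threshold (edgeR adjusted p = 0.000773). This scaling moved the median of all genes to 1.85 in the former comparison and to -2.27 in the latter. In the latter 5380 of 13517 genes passed, so passing says little about Id1. With TMM scaling and without KO-F1 replicate 2, Id1 in KO-F2 against KO-F1 was at -1.55. These comparisons share groups of libraries, so the differences of KO-F1 from Ctrl-F1 and from KO-F2 are not independent.

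Hfe2 lay the other way. It had 30 and 41 counts in Ctrl-F1, then 11 and 29 in KO-F1 and finally 328 and 405 in KO-F2 spermatozoa, or 12.9 and 34.5, 3.27 and 12.4, and 29.0 and 49.1 CPM. Both KO-F1 libraries were below all others, by less than the spread within each group. KO-F1 replicate 2, with 29 counts and 12.4 CPM, lay just under Ctrl-F1 replicate 1, with 30 counts and 12.9 CPM. The log2 fold change was -1.59 (SE 0.96, edgeR adjusted p = 0.413) in KO-F1 against Ctrl-F1 and 0.77 (SE 0.58, edgeR adjusted p = 0.607) in KO-F2 against Ctrl-F1. In KO-F2 against KO-F1 it was 2.51 (SE 0.66), past the threshold in DESeq2 (adjusted p = 0.00407) and not in edgeR (adjusted p = 0.0385). When libraries were scaled to the late spermatogenesis markers, Hfe2 was at 0.12 in KO-F1 against Ctrl-F1 and at 0.18 in KO-F2 against KO-F1 (edgeR adjusted p = 0.830), so the direction of the former and the size of the latter depended on the scaling.

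Tfrc, Smad7 and Hfe were measured on few reads in sperm. Tfrc had 12 and 55 counts in Ctrl-F1, then 30 and 9 in KO-F1 and finally 53 and 5 in KO-F2. Its log2 fold change in KO-F2 against Ctrl-F1 was -3.18 (SE 1.32, edgeR adjusted p = 0.342), and -0.89 without Ctrl-F1 replicate 2. In KO-F1 against Ctrl-F1 it was -1.97 (SE 1.10, edgeR adjusted p = 0.374), and 0.27 without the same library. Smad7 had 0 and 9 counts in Ctrl-F1, then 15 and 34 in KO-F1 and finally 36 and 28 in KO-F2, and Hfe had 12 and 3, 10 and 7, and 53 and 63. With TMM scaling edgeR called none of the 3 in the comparisons in which it was tested. Scaled to the late spermatogenesis markers, Smad7 passed the threshold in KO-F2 against KO-F1, at -3.68 (edgeR adjusted p = 0.00721). So did 5380 of 13517 genes under this scaling, with a median of -2.27 over all genes.

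In KO-F1 against Ctrl-F1 spermatozoa 4 members were tested, Hfe2, Tfrc, Id1 and Smad7. edgeR called 0 of them (0% of all genes), DESeq2 called 0 (3.62% of all genes) and 1 had an unadjusted p under 0.05 (19.5% of all genes). In KO-F2 against Ctrl-F1, where Hfe was tested too, edgeR called 0 of 5 (0%), DESeq2 0 of 5 (2.11%) and 0 of 5 had an unadjusted p under 0.05 (14.9%). In KO-F2 against KO-F1 edgeR called 0 of 5 (2.31%), DESeq2 called 1 of 5, Hfe2 (15.2%), and 2 of 5, Hfe2 and Id1, had an unadjusted p under 0.05 (36.8%). Against these backgrounds the counts are no result about the members.

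The sperm libraries also differed in the markers they held. Leukocyte markers summed to 0.2397% to 0.673% of counts in Ctrl-F1, to 1.21% to 3.07% in KO-F1 and to 0.158% to 0.326% in KO-F2 spermatozoa. Macrophage markers summed to 0.0220% to 0.0628% in F1 and 0.228% to 0.399% in KO-F2 spermatozoa, epididymal epithelial markers to 0.659% to 2.01% and 0.176% to 0.343%, and erythroid markers to 0.00904% to 0.0146% and 0.0860% to 1.04%, the highest in KO-F2 replicate 2. Of the leukocyte sum 89.2% to 99.99% was Cd52, which the epididymal epithelium also makes. Thus Id1 was highest in the libraries with the most Cd52 and the lowest share of late spermatogenesis markers. Hfe2 was lowest in these libraries under TMM scaling, by less than the spread within each group. The part of the markers in these differences was not tested.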

How the data were processed

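The authors deposited raw counts per gene symbol for 10 libraries. Per their methods and processing notes, single-end reads of 75 bases were aligned to GRCm38 with HISAT2 2.1.0 and uniquely aligned reads were counted with featureCounts; the annotation and strand setting are not given in the sources used here. Liver libraries were strand-specific mRNA libraries and sperm libraries were PCR-amplified cDNA (SMART-Seq v4, Nextera XT), and intervals and detection limits cover counting error, not PCR duplication. Of 23420 lines per file, 2 symbols listed more than once were left out.

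Each pair of groups was fitted with edgeR 4.0.16 in R 4.3.3 (TMM, filterByExpr with minimum count 10 and minimum total 15, quasi-likelihood test). The call threshold was a 2-fold change with an adjusted p under 0.01. DESeq2 1.42.0 was the main alternative. The other alternatives were DESeq2 size factors, library totals, no filter, 10 counts in every library, a replicate block, no fold threshold, an adjusted p under 0.05, scaling of sperm to the late spermatogenesis markers and leaving out each replicate.

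Lengths, positions and promoters were from RefSeq (GRCm38.p6); symbols absent from the counts were matched to older ones. The promoter table had entries for Hamp, Hamp2, Hfe, Tfr2 and Tfrc. The genes named are the 10 members, all genes within 100 kb of the hepcidin pair, the 5 genes nearest to each hepcidin gene, and from each pathway list those called by either tool and 3 more with the smallest edgeR p; 1 gene that this rule names is not reported here. The members and lists were chosen with earlier results of these data known. Within a tissue, same-numbered replicates of different groups are different animals. Whether a liver and a sperm library of the same number came from the same male is not given in the sources used here. On simulated counts edgeR's estimates were centred on the true change and its p-values were level without one; at the spread of the sperm libraries it called few or none of the 4-fold changes simulated, so a count of 0 there says little. DESeq2 called more of them, with more false calls than its threshold allows. ChIP-seq and embryo samples were not analysed here.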

Additional observations from a re-analysis of the deposited data

Results flagged for a closer look

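Hfe2 lay in opposite directions in the 2 tissues of KO-F1 males under TMM scaling. Both KO-F1 livers were above both Ctrl-F1 livers, at a log2 fold change of 0.53. Both KO-F1 sperm libraries were below both Ctrl-F1 sperm libraries, at -1.59. The sperm groups were separated by less than the spread within each, with 12.4 CPM in KO-F1 replicate 2 and 12.9 CPM in Ctrl-F1 replicate 1. Scaled to the late spermatogenesis markers, the sperm value was 0.12, the same sign as in liver. The share of these markers was itself lower in KO-F1 sperm, and this scaling moved the median of all genes to 1.85. The difference between the tissues was not tested, neither value passed the threshold, and the tissues were prepared with different kits.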

How the results depend on the processing

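In liver, 0 genes and 0 of the 10 members were called by edgeR. The counts of genes and of members were 1 and 1 at an adjusted p under 0.05. They were 20 and 2 in DESeq2 and 25 and 2 without a filter, each of 15485 genes tested. With 10 counts in every library they were 1 and 1, and with the replicate block 2 and 1. Leaving out a replicate gave 4 to 107 genes and 1 to 3 members. Hamp and Hamp2 kept their direction under all of these. Apart from Tfrc in the fit without Ctrl-F1 liver replicate 1, the members called were Hamp2 or both hepcidin genes. The pair was chosen on this contrast, so these counts of members support nothing further. Leaving out a replicate turned the sign of 4 members in liver: the ranges were -0.19 to 0.021 for Hfe, -0.22 to 0.039 for Tfr2, -0.018 to 0.15 for Slc40a1 and -1.02 to 2.01 for Id1. In KO-F1 against Ctrl-F1 spermatozoa, 0 genes became 390 in DESeq2, 113 without a filter and 200 with 10 counts in every library, and no member was called in any of them or in any fit that left out a replicate (0 genes). Hfe2 turned to 0.12 when scaled to the late spermatogenesis markers, which moved the median of all genes from 0.02 to 1.85, and Tfrc ranged from -2.84 to 0.27 without a replicate. In KO-F2 against Ctrl-F1 spermatozoa, 0 genes became 277 in DESeq2, 39 without a filter, 1 with 10 counts in every library and 362 with the replicate block, and 35 to 277 without a replicate, again with 0 members. Id1 turned to -0.26 when scaled to the markers, and ranged from -0.017 to 0.27 without a replicate. Smad7 turned to 0.21 with library totals, 0.0058 without a filter and 1.01 with the replicate block, and ranged from -1.13 to 7.59 without a replicate, the highest without Ctrl-F1 replicate 2, where the remaining control library had 0 counts. In KO-F2 against KO-F1 spermatozoa, 312 genes became 2759 at an adjusted p under 0.05, 2058 in DESeq2, 0 with library totals, 2552 without a filter, 1805 with 10 counts in every library, 819 with the replicate block, 5380 when scaled to the markers and 230 to 2898 without a replicate. The members called there were 0, against 2 at an adjusted p under 0.05, 1 in DESeq2, 1 without a filter, 1 with 10 counts in every library, 2 when scaled to the markers and 0 to 2 without a replicate; Hfe turned to -1.16 when scaled to the markers. Same-numbered samples of the groups compared shared only a number, with correlations of their deviations between -0.09 and 0.12 over genes. A lone sample in a group was assumed to vary like the other group. Except where said, the cause of these changes was not tested. With 2 libraries a group, and F1 sperm libraries of 1503733 to 2778171 counts, the precision for low genes is small.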
